A study of Homo sapiens with 6 samples.

Results

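Fragments of human mitochondrial tRNAs that begin at the 5' end of the tRNA, or that run to 42 nt or more, were examined in the melanoma cell line A375, an established human line. They were chosen by sequence, fragment type and length, with earlier results of these data known. Each had an exact match to 1 of the 22 mitochondrial tRNA genes (with the CCA tail added). Each was also either a type of 5' fragment (5'-tRF or cleaved at the anticodon) of 19 nt or more, or a fragment of 42 to 50 nt that is not a 3'-tRF. The abundant family of 5' fragments of MT-TM, the methionine tRNA, was left out. The choice gave 97 of the 3443 fragments in the table, with 574 of its 126840 counts, from 15 of the 22 genes. The libraries came from wild-type A375 cells and from A375 cells with DUS1L knocked out by CRISPR/Cas9 and clones selected, 3 libraries each. The wild-type cells were kept in parallel and not targeted, and the labels name no other treatment. The labels do not say how many clones the knockout libraries represent, so the p-values reflect only how much these libraries vary.

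Mitochondrial tRNA genes lie between the protein and rRNA genes of the mitochondrial genome, on both strands, and are cut out of long transcripts, after which CCA is added to their 3' ends. The mature tRNAs read the codons for subunits of the respiratory chain. Cleavage in or near the anticodon loop of a tRNA gives a 5' and a 3' fragment, and longer 5' fragments reach into the variable loop or the T arm. DUS1L is a dihydrouridine synthase that modifies bases 16 and 17 of cytosolic tRNAs. The comparison asks which tRNA fragments differ when DUS1L is lost.

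The following sequences carry most of the counts of the chosen fragments or show their main forms. They are written 5' to 3' as DNA with the anticodon, or as much of it as the fragment holds, in capitals. The first pair share their 5' end and differ in where they stop.
tRF-32-ROD8N0X0JYOYO (MT-TY, positions 1 to 32): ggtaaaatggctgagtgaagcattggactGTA
tRF-50-ROD8N0X0JYOYUE4BOPRN (MT-TY, positions 1 to 50): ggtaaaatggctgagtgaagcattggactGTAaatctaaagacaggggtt
tRF-50-J09PNO2OF5KDYFNP5EYO (MT-TV, positions 1 to 50): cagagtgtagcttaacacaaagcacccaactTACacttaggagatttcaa
tRF-46-J09PNO2OF5KDYFNP5EE (MT-TV, positions 1 to 46): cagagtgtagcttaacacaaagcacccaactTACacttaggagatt
tRF-50-SBVPZOKB0MFN7BWU2F5J (MT-TH, positions 1 to 50): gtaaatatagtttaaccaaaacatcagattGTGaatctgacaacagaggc
tRF-50-Z6VYDY2EWBOJFZ2DN1RJ (MT-TC, internal, positions 15 to 64): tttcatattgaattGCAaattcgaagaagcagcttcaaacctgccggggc
tRF-50-DFKON5EX62Z6EXEY0VWU (MT-TV, internal, positions 20 to 69): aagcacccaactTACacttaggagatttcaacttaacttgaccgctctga
On GRCh38 the gene MT-TY lies on the minus strand of the mitochondrial chromosome at 5826 to 5891, MT-TV on the plus strand at 1602 to 1670, MT-TH on the plus strand at 12138 to 12206 and MT-TC on the minus strand at 5761 to 5826. Each is a tRNA gene without introns. The tRNA of MT-TY is 66 nt long without CCA, and its gene reads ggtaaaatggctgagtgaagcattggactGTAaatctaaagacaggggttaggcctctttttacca. The fragment of 32 nt ends at the third base of the anticodon. None of the 97 sequences was found in another GENCODE transcript, although nuclear copies of mitochondrial DNA outside the annotated transcripts were not searched.

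Library totals ranged from 15742 to 32754 counts, a depth at which most of the chosen fragments were seen too rarely to pass the low-count filter. Of the 97 fragments, 50 had 1 count over the 6 libraries, 7 had 10 or more, and 2 were seen in every library. Fragments were compared with edgeR's quasi-likelihood test, fitted on the whole table. That fit tested 235 fragments, of which 53.6% passed an adjusted p of 0.05, 25.5% higher and 28.1% lower in the knockout. Only 3 of the 97 fragments reached the minimum count for testing, and 2 of them were higher and 1 was lower. With so many changes in the background, that count says nothing particular about mitochondrial fragments. Both higher fragments reached the minimum through their knockout counts, so they could hardly have been tested without differing.

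The tyrosine tRNA, MT-TY, gave 293 of the 574 counts, in 10 fragments that all start at position 1, and its short and long forms went in opposite directions. The fragment of 32 nt had 49, 24 and 32 counts in wild-type libraries 1, 2 and 3, and 13, 22 and 15 counts in knockout libraries 1, 2 and 3. Scaled to library size, every knockout library was below every wild-type library. Groups without overlap were common in the whole table (58.7% of the tested fragments, 28.1% higher and 30.6% lower in the knockout). The 32 nt fragment fell from 1601 ± 80.2 to 863 ± 379 counts per 1000000 (CPM, with TMM scaling; SD, n = 3 each; log2 fold change -0.92, SE 0.340; adjusted p = 0.0395 by edgeR). That call was a narrow one: it ended with DESeq2's size factors in edgeR (adjusted p = 0.0577), library totals only (0.0600), no low-count filter (0.355), DESeq2's Wald test (0.204) and without wild-type library 1 (0.110) or 2 (0.0662) or knockout library 1 (0.179) or 3 (0.161).

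The fragment of MT-TY of 50 nt, which shares its first 32 bases with the short form, had 6, 0 and 0 counts in the wild-type libraries and 63, 11 and 18 in the knockout libraries. All of its wild-type counts came from wild-type library 1, the deepest, and 63 of its 92 knockout counts from knockout library 1. It rose from 68.8 ± 119 to 1509 ± 1379 CPM (SD, n = 3 each; log2 fold change 4.01, SE 0.898; adjusted p = 0.00440 by edgeR). The fragment reached the minimum count only through its knockout libraries, so its call is not separate support for the difference. Without knockout library 1 the log2 fold change was 3.10 with an SE of 0.953, and edgeR's adjusted p was 0.0351. In wild-type libraries 2 and 3, a count of 0 allows up to 0.0191% and 0.0163% of counts. The ratio of the pooled knockout to the pooled wild-type libraries was 16.5. Without wild-type library 1 the wild-type group is at 0, and the fitted log2 fold change of 7.88 has no fixed size. Against a floor of 3 counts over the other 2, the pooled knockout was then 18.3-fold higher. That floor bounds the wild-type side only, and most of the pooled knockout counts came from knockout library 1.

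The other 8 fragments of MT-TY, of 19 to 37 nt, had 11, 9 and 6 counts in wild-type and 8, 4 and 2 in knockout libraries. Among them the fragments of 33 nt (16 counts) and 31 nt (10 counts), each 1 base from the leading form, were the most frequent. None of the chosen fragments of MT-TY was between 38 and 49 nt long. The sum over all its fragments was 66, 33 and 38 counts in wild-type and 84, 37 and 35 in knockout libraries, and the groups overlapped. Fitted as a sum, MT-TY had a log2 change of 0.31 with an SE of 0.354 (adjusted p = 0.488 by edgeR), which turned to -0.072 without knockout library 1. The sum combines opposite differences. Its only fragment over 37 nt is the one of 50 nt described above, and restricted to fragments of 19 to 41 nt the log2 change was -0.89 with an SE of 0.313 (adjusted p = 0.0318 by edgeR). The split at the shorter lengths was chosen after the values were seen and was fitted with the main scaling and filter only. The 32 nt fragment held 155 of its 195 counts, so its call is not separate from the narrow call of that fragment.

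The valine tRNA, MT-TV, gave 150 counts in 24 fragments, 17 of them starting at position 1 and 7 internal. Its fragment of 50 nt had 8, 0 and 0 counts in wild-type and 29, 13 and 17 in knockout libraries. As for MT-TY, all wild-type counts came from wild-type library 1, and every knockout library was above it. The fragment rose from 91.7 ± 159 to 977 ± 390 CPM (SD, n = 3 each; log2 fold change 3.00, SE 0.737; adjusted p = 0.00708 by edgeR). Here too the minimum count was reached only through the knockout libraries, so the call is not separate support. Leaving out knockout library 1 ended this call (2.79, adjusted p = 0.0507 by edgeR). The ratio of the pooled libraries was 7.95. Without wild-type library 1 the wild-type group is at 0, and the fitted log2 fold change of 7.26 has no fixed size. Against a floor of 3 counts over those 2 libraries the pooled knockout was then 11.7-fold higher. That floor bounds the wild-type side only.

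A second 5' form of MT-TV, of 46 nt, was singled out after its values were seen. It had 3, 2 and 1 counts in wild-type and 7, 6 and 3 in knockout libraries, below the minimum count for testing, and the scaled levels overlapped. Unlike MT-TY, MT-TV had no leading form at the anticodon: its 12 fragments of 19 to 41 nt held 35 counts and stopped at many places, with 7 counts at 19 nt, 6 at 23 nt, 5 each at 31 and 39 nt and 1 at 32 nt. These short forms had 11, 7 and 3 counts in wild-type and 9, 3 and 2 in knockout libraries. Summed over all its fragments MT-TV had 34, 11 and 6 counts in wild-type and 51, 24 and 24 in knockout libraries, or 727 ± 434 and 1649 ± 759 CPM (SD, n = 3 each), with overlap. Its log2 fold change was 1.13 (SE 0.475), past an unadjusted p of 0.05 but not the adjusted threshold (edgeR adjusted p = 0.0642). The call depended on the libraries: the log2 change was 1.77 without wild-type library 1 (adjusted p = 0.0109 by edgeR) and 1.43 without knockout library 3 (0.0386). It was 0.80 without wild-type library 3 (0.121), 0.84 without knockout library 1 (0.207) and 1.15 without wild-type library 2 (0.127). Restricted to 42 to 50 nt the sum was 23, 4 and 3 counts in wild-type and 42, 21 and 22 in knockout libraries (log2 change 1.69, SE 0.530; adjusted p = 0.0207 by edgeR), but it reached the minimum count through its knockout libraries.

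So of the 15 sums per gene, 2 reached the minimum count and 0 passed edgeR's adjusted threshold, where 53.4% of the 234 rows of that fit did. At an unadjusted p under 0.05 there was 1 sum, and DESeq2's Wald test called 0. With no low-count filter, all 15 sums were fitted and edgeR called 0. The ratio of MT-TV to MT-TY, chosen after the values were seen, was -1.69 ± 0.819 on the log2 scale in wild-type libraries and -0.62 ± 0.0899 in the knockout (SD, n = 3 each), without overlap (exact permutation test, p = 0.1; 0.117 adjusted over 7 ratios). The difference of 1.06 was 0.62 without wild-type library 3. All permutation tests here were two-sided, and 0.1 is the smallest p that 3 libraries against 3 can give.

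The histidine tRNA, MT-TH, ranked next, with 33 counts in 9 fragments. Its sum was 4, 4 and 3 counts in wild-type and 9, 6 and 7 in knockout libraries, 183 ± 72.6 and 365 ± 70.2 CPM (SD, n = 3 each), without overlap. This was under the minimum for testing. Of the 234 rows tested beside it, 57.3% did not overlap, 26.9% with the knockout higher and 30.3% with it lower. The 5' fragment of 50 nt held 14 of the 33 counts, 2, 1 and 0 in wild-type and 3, 3 and 5 in knockout libraries. One further fragment of 50 nt in the table, seen once in knockout library 2, was a T followed by the first 49 bases of MT-TH and so was not among the 97.

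The other 12 genes had between 1 and 28 counts each over all libraries, and none reached the minimum count for testing. MT-TA, the alanine tRNA, was the largest of them, with 28 counts in 12 fragments of 20 to 38 nt, 8, 2 and 4 in wild-type and 4, 4 and 6 in knockout libraries. None of its chosen fragments was longer than 38 nt. At such lengths the choice took 5' fragments only, so all of them began at position 1. MT-TC, the cysteine tRNA, had 21 counts in 8 internal fragments, 7, 1 and 1 in wild-type and 7, 1 and 4 in knockout libraries. MT-TI had 11 counts, MT-TE and MT-TS2 had 9 each, and MT-TD, MT-TN, MT-TM, MT-TR, MT-TK, MT-TL2 and MT-TL1 had 5 or fewer. At this depth a difference between the groups could not be detected for any of them. Together, the 63 fragments of all genes other than MT-TY and MT-TV had 36, 11 and 10 counts in wild-type and 28, 17 and 29 in knockout libraries.

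Summed over genes, the long 5' fragments took a larger share of the counts in the knockout and the short ones a smaller share, and MT-TY and MT-TV carried most of both. Long 5' fragments came from 4 genes, and MT-TY and MT-TV held 195 of their 214 counts. The 11 5' fragments of 42 to 50 nt had 25, 3 and 2 counts in wild-type and 107, 34 and 43 in knockout libraries. This was 0.0763%, 0.0191% and 0.0109% of all counts against 0.514%, 0.212% and 0.186%, with exact (Clopper-Pearson) 95% binomial intervals of 0.0494 to 0.113%, 0.00393 to 0.0557% and 0.00131 to 0.0392% in wild-type and 0.422 to 0.621%, 0.147 to 0.296% and 0.135 to 0.251% in knockout libraries. Such intervals cover counting error only, not variation between libraries. They also take each read as independent, which could not be checked because the reads carry no molecular identifiers. The mean share was 0.0354% ± 0.0357 in wild-type libraries and 0.304% ± 0.182 in the knockout (SD, n = 3 each; exact permutation test, p = 0.1; 0.133 adjusted over 4 classes). Without knockout library 1 the difference of 0.269 percentage points was 0.164.

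The 52 5' fragments of 19 to 41 nt had 90, 45 and 48 counts in wild-type and 41, 33 and 28 in knockout libraries. Their share was 0.274% ± 0.0127 in wild-type libraries and 0.175% ± 0.0464 in the knockout (SD, n = 3 each), again without overlap (exact permutation test, p = 0.1; 0.133 adjusted). MT-TY held 195 of their 285 counts, and without it the counts were 30, 12 and 10 in wild-type and 20, 7 and 11 in knockout libraries. The shares without MT-TY overlapped, at 0.0916%, 0.0762% and 0.0543% in wild-type and 0.0961%, 0.0436% and 0.0477% in knockout libraries. The 34 internal fragments of 42 to 50 nt made up 0.0434% ± 0.0212 and 0.0715% ± 0.00264 (SD, n = 3 each; exact permutation test, p = 0.1; 0.133 adjusted), from 21, 7 and 4 counts in wild-type and 15, 11 and 17 in knockout libraries. This difference of 0.0280 percentage points was 0.0172 without wild-type library 3. With all 97 fragments together, the share was 0.353% ± 0.0611 in wild-type libraries and 0.550% ± 0.208 in the knockout (SD, n = 3 each), with overlap (exact permutation test, p = 0.2; 0.2 adjusted). That difference, 0.198 percentage points, was 0.0813 without knockout library 1. By library these shares were 0.415%, 0.349% and 0.293% in wild-type and 0.783%, 0.486% and 0.382% in knockout libraries.

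The ratio of long to short 5' fragments needs no scaling between libraries, and it was compared after the values were seen. On the log2 scale, with 0.5 added to each count, it was -3.27 ± 1.28 in wild-type libraries and 0.68 ± 0.668 in the knockout (SD, n = 3 each), a difference of 3.94. For MT-TY alone the ratio went from -5.18 ± 1.70 to 0.15 ± 1.38, and for MT-TV alone from -0.58 ± 0.963 to 2.55 ± 0.490 (SD, n = 3 each). The remaining genes, with 19 long and 55 short counts in all, went from -2.54 ± 1.19 to -0.74 ± 0.353 (SD, n = 3 each). Their long counts were 5, 1 and 0 in wild-type and 5, 3 and 5 in knockout libraries. This last ratio mostly sets different tRNAs against each other. MT-TH gave 17 of the long counts and 6 of the short ones, while MT-TA gave 28 of the short counts and no long one. The sizes depend on the pseudocount, since wild-type libraries 2 and 3 had no long count of MT-TY. With 5 added, the difference was 3.03 instead of 5.33 for MT-TY, 1.95 instead of 3.13 for MT-TV and 0.64 instead of 1.80 for the remaining genes, which also had 1.11 without wild-type library 3. In all 4 cases the groups did not overlap, and the exact permutation test gave p = 0.1 for each, 0.117 adjusted over 7 ratios. Of the fragments tested in the whole table, 58.7% did not overlap. The 4 cases are not separate, since the first combines the other 3. The long counts of MT-TY were its 50 nt fragment alone, and that of MT-TV held 67 of the 97 there. Both had reached the minimum count through their knockout libraries, so these ratios are not separate support. Wild-type library 1 had the highest ratio of its group in each case, and it also held 25 of the 30 wild-type counts of long 5' fragments.

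Fragments of 42 to 50 nt were nearly all mitochondrial in this table. Those that matched no mitochondrial tRNA held 1 count at that length, the MT-TH fragment with the extra T, so the recovery of this length in each library could not be checked on nuclear fragments. Just below it, fragments of 35 to 41 nt made up 1.22%, 1.19% and 1.17% of the counts without a mitochondrial match in wild-type and 1.49%, 1.18% and 1.73% in knockout libraries, which overlapped. The part of library size selection in the long fragments was not tested. Of the 289 counts of the chosen fragments at 42 to 50 nt, 209 were at 50 nt, the longest length in the table, so the table does not show whether those RNAs ended there. Just outside the lower limit of 19 nt, 24 other mitochondrial 5' fragments of 16 to 18 nt held 537 counts, 130, 80 and 109 in wild-type and 68, 71 and 79 in knockout libraries.

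The short 5' fragments of MT-TY stopped mostly in the anticodon loop. Of 285 counts at 19 to 41 nt, 223 ended between 2 bases before and 4 bases after the first anticodon base, the 7 bases of the loop. Another 40 ended before the loop and 22 past it. MT-TY gave 189 of the 223 counts that ended in the loop, out of its 195. The other genes together had 34 counts ending in the loop, 39 before it and 17 past it, and MT-TV had 6 of its 35 in the loop. The fragment of 32 nt of MT-TY made up 155 of the 163 counts that ended at the third anticodon base. The other 8 counts were of fragments of 33 nt from MT-TA, MT-TH and MT-TE, so this end was found on 4 tRNAs but was frequent on 1. The position of the anticodon was found by a search for the known anticodon after a T, or after a C in MT-TM.

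The internal fragments of 42 to 50 nt came from 10 genes and mostly ran close to the 3' end. Of 34 fragments, 7 with 16 counts ended at the last base encoded by the gene, and 18 with 39 counts ended 1 to 5 bases before it. None of the 97 included a base of the CCA tail, but the choice left out 3'-tRFs, so this says nothing about the RNAs themselves. At 42 to 50 nt the mitochondrial 3'-tRFs left out were 1 fragment with 1 count, in knockout library 3. A group of 7 fragments with 16 counts, among them those of MT-TM and MT-TH, ended 16 or more bases before the last base. Among the 97 fragments, 6 genes were represented by internal fragments only, 5 by 5' fragments only and 4 by both. MT-TM is one of the 6 only because its 26 5' fragments, with 2654 counts, were left out by the choice. MT-TS2, the serine tRNA that lacks a D arm, is another. The most frequent internal fragment, the 50 nt form of MT-TC, had 4, 0 and 0 counts in wild-type and 3, 1 and 1 in knockout libraries.

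All 63 5' fragments began at position 1 and so held positions 16 and 17, counted along the sequence, a count that may differ from standard tRNA numbering. In MT-TY these bases are T and G, and in MT-TV they are C and A, so the tested 50 nt forms included 1 with a T at these positions and 1 without. The untested 50 nt 5' form of MT-TH, with C and C, had 2, 1 and 0 counts in wild-type and 3, 3 and 5 in knockout libraries. That of MT-TM, with A and T, was outside the choice, with 85, 25 and 5 in wild-type and 394, 188 and 252 in knockout libraries. A part of the base in these differences was not tested. Among the 63 fragments, those with a T at either position numbered 31, with 79, 35 and 42 counts in wild-type and 92, 41 and 42 in knockout libraries. The other 32 had 36, 13 and 8 counts in wild-type and 56, 26 and 29 in knockout libraries. The first set was also exactly the set encoded on the minus strand, and most of its counts were of MT-TY, so the base, the strand and the gene cannot be told apart.

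Compared with the 5' fragments of MT-TM, the chosen fragments made up less in the knockout. The log2 ratio of all 97 fragments to the MT-TM 5' fragments was -0.53 ± 0.364 in wild-type libraries and -2.81 ± 0.163 in the knockout (SD, n = 3 each), without overlap (exact permutation test, p = 0.1; 0.3 adjusted over 3 classes). At 42 to 50 nt, where MT-TM had 204, 61 and 42 counts in wild-type and 922, 530 and 601 in knockout libraries, the log2 ratio was -3.74 ± 0.640 and -3.61 ± 0.448 (SD, n = 3 each). The groups overlapped, with a difference of 0.13 that changed sign with the pseudocount (-0.63 with 5 added; exact permutation test, p = 0.6 with 0.5 added and 0.1 with 5). At 19 to 41 nt MT-TM had 46, 18 and 13 counts in wild-type and 83, 50 and 71 in knockout libraries, the opposite order to the chosen fragments. There the log2 ratio went from 1.37 ± 0.446 to -0.98 ± 0.369 (SD, n = 3 each), without overlap (exact permutation test, p = 0.1; 0.117 adjusted over the 7 ratios chosen after the values were seen). Against mitochondrial internal tRFs of 41 nt or less the log2 ratio was -3.15 ± 0.771 and -2.48 ± 0.696, and against mitochondrial 3'-tRFs -0.93 ± 1.15 and 0.96 ± 0.805 (SD, n = 3 each). Both overlapped between the groups, and the exact permutation test gave p = 0.4 and p = 0.2, or 0.4 and 0.3 adjusted. The difference against internal tRFs, 0.68, was 0.29 without knockout library 1, 0.32 without wild-type library 3 and 1.09 without wild-type library 1.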

How the data were processed

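Small RNA of 6 libraries, 3 wild-type and 3 DUS1L knockout, was measured by single-end sequencing. The authors deposited raw read counts per fragment, not normalized; per the labels' design text, reads were mapped with MINTmap. Per the submitters' processing notes the authors used FastQC, cutadapt, DESeq2 and GRCh38 (hg38), with no version or filter named. Each fragment's name is a MINTbase licence plate, which encodes its sequence. All 3443 were decoded and matched exactly to the 22 mitochondrial tRNA sequences of GENCODE release 29 with CCA added, and 1157 matched.

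Counts were tested with edgeR 4.0.16 (R 4.3.3) after filterByExpr with a minimum count of 10 and TMM (trimmed mean of M-values) scaling. Fold changes are knockout over wild-type, and p-values were adjusted by Benjamini-Hochberg over all rows tested. In a second table, the 97 fragments were replaced by 1 sum per gene and all other fragments were kept as they were. Each SE was derived from the estimate and its F value. Shares and log2 ratios (0.5 added) were compared by exact permutation (scipy 1.17.1). The test was also run on simulated counts, drawn with the same dispersion for all rows. That setting does not copy the uneven libraries of the sparse fragments here, so the run does not bear on their calls. Genes whose sum passed the filter, or with 30 or more counts, and fragments that passed it were named. No pair of replicates was alike within counting noise (lowest chi-square over its degrees of freedom, 2.56). The members and comparisons were chosen with earlier results of these data known. Alternatives were other scalings and filters, DESeq2 1.42.0, a replicate block and leaving out each library.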

Additional observations from a re-analysis of the deposited data

How the results depend on the processing

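Only 3 fragments and 2 gene sums passed the main low-count filter, so counting depth limits the tests here. With no filter all 97 fragments and 15 sums were fitted, and 2 fragments and 0 sums were called (4 and 1 at an unadjusted p under 0.05). With 50 or more counts required in 3 libraries no chosen fragment or sum was left. The number of chosen fragments called higher (2) was 1 without knockout replicate 1 and 2 in the other fits that tested them, and the number called lower (1) ranged from 0 to 1 when a library was left out and was 0 with DESeq2's size factors, library totals only, no low-count filter or DESeq2's Wald test. The number of gene sums called higher (0) ranged from 0 to 1 when a library was left out, was 1 with DESeq2's size factors, a replicate block or a shortest 5' fragment of 25 nt, and was 2 with sums of 42 to 50 nt only; the number called lower (0) was 1 with sums of 19 to 41 nt only, a setting chosen after the values were seen. That last setting turned the log2 fold change of MT-TY to -0.89, and leaving out 1 library gave -0.072 (without knockout replicate 1) to 0.65. Of all 235 fragments, 60 higher and 66 lower, the higher calls were 21 with 50 or more counts in 3 libraries and ranged from 45 to 84 when a library was left out. The lower calls were 42 with no low-count filter, 17 with 50 or more counts, 31 with DESeq2's Wald test, and 28 to 75 when a library was left out, the lowest without knockout replicate 1; the cause was not tested. The median log2 fold change of all fragments was -0.01.

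The shares of counts and the ratios kept their direction under each alternative run except the ratio of long 5' fragments to those of MT-TM, though several moved by over 1.5 times. The difference of that ratio, 0.13, was -0.63 with a pseudocount of 5 and ranged from -0.12 to 0.50 when a library was left out. The replicate numbers are not said to pair libraries: deviations of same-numbered libraries correlated at 0.37, -0.070 and 0.11, and 3 of the 6 libraries correlated best with their own number. With a replicate block, 60 fragments were higher and 56 lower, and the sum of MT-TV passed (log2 fold change 1.23, edgeR adjusted p = 0.0117).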
